A study of Drosophila melanogaster with 8 samples.

Results

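The proteasome subunit genes were taken as every gene of the deposited count files whose FlyBase symbol starts with Prosalpha, Prosbeta, Rpt followed by a digit, or Rpn. This gave 48 genes of 14175. By symbol alone, 32 are core subunit genes and 16 are paralogues, which carry R (related) or T (testis) after the subunit number. RNA came from ventral nerve cords, the larval counterpart of a spinal cord with the brain lobes cut away, of female Drosophila melanogaster, wandering larvae of the third instar in a w1118 background. Mutants were w;;witA12,st1/witB11,st1 and controls were w;;witA12,st1/+, so both genotypes carry witA12 and the eye-colour marker st1 on at least 1 chromosome 3. The lesions of the wit alleles, and whether the other chromosomes were matched between genotypes, are not given in the sources used here. Each genotype had 4 libraries, each from 25 pooled nerve cords, so single animals cannot be told apart and p-values measure the spread between these pools. The gene wit encodes a type II receptor for BMP signals, and the comparison asks which nerve cord transcripts depend on it.

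The proteasome is the protease that destroys proteins tagged with ubiquitin. Its core particle (20S) is a barrel of alpha rings, which form the gate, around beta rings, which hold the cutting sites. The regulatory particle (19S) caps the barrel: its Rpt subunits are ATPases that unfold and push in the substrate, and its Rpn subunits recognise ubiquitin, remove it and hold the particle together. In neurons the complex is known for setting synaptic protein levels and shaping axons and dendrites, and cells that lose proteasome activity are known to raise many subunit genes together.

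Libraries held 20923717 to 32740480 estimated counts, with the lowest total in mutant replicate 1. Levels are given as CPM, counts scaled to a common library total. Controls had 90.6 ± 3.43 CPM of wit (SD, n = 4) and mutants 86.8 ± 3.97 (edgeR adjusted p = 0.371), so the level of wit does not check the genotype labels. The gene st, whose marker is on both mutant chromosomes, had 0.410 CPM on average in controls and 0.187 in mutants, from 4 to 14 counts a library (edgeR adjusted p = 0.0297), and this call held in 4 of the 13 alternatives that tested it. Neuron markers fixed for the tissue were well expressed, with sums over 6 genes of 4897 to 5114 CPM in controls and 3959 to 4470 CPM in mutants. Of the 6, elav and Gad1 did not pass (edgeR adjusted p = 0.0918 and 0.330). The other 4 were called lower (VGlut, nSyb, Syt1 and brp), where 8.66% of all genes tested were. The count was 2 once any of control replicates 2 to 4 or either of mutant replicates 2 and 4 was left out. VGlut had a log2 fold change, mutant over control, of -0.67 (edgeR adjusted p = 6.99e-07). Of 16 alternatives, VGlut was called in 16, nSyb in 15, and Syt1 and brp in 9 each. Sums over 7 glial markers were 1580 to 1628 CPM in controls and 925 to 1348 CPM in mutants. Of the 7, repo, moody and alrm did not pass (edgeR adjusted p = 0.247, 0.371 and 0.462). The other 4 were called lower (wrapper, Eaat1, Gat and Gs2). Leaving out control replicate 2, control replicate 3 or mutant replicate 2 left 1 call. Leaving out control replicate 1, control replicate 4 or mutant replicate 3 left 2. The log2 fold change of wrapper was -0.38 (edgeR adjusted p = 3.62e-05). Of 16 alternatives, wrapper was called in 16, Eaat1 in 10, and Gat and Gs2 in 7 each. With 1 surrogate variable 1 neuron and 1 glia marker were called. In whole tissue, fewer cells of a type and less RNA per cell cannot be told apart. Sums over 4 neuroblast markers overlapped between genotypes, at 188 to 200 and 180 to 208 CPM. Markers of muscle (4 genes, at most 11.6 CPM together) and of hemocytes and fat body (5 genes, at most 19.6 CPM together) were low.

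Core subunit transcripts other than Prosalpha1 differed little between genotypes in the main fit, with log2 fold changes of -0.06 to 0.15. All 32 core genes were tested, and edgeR's quasi-likelihood test called 0 of them higher and 0 lower at an adjusted p under 0.05. Over all 9176 genes tested, 14.8% were called, 6.12% higher and 8.66% lower in mutants. At an unadjusted p under 0.05, 5 of the 32 core genes had a higher and 0 a lower level in mutants. Of the 9176 genes tested, 1311 had a higher and 1462 a lower level at this threshold, 30.2% in either direction. Among 1440 genes in the same range of mean CPM, 15.1% were called, 3.26% as higher. The median log2 fold change (mutant over control) of the core genes was 0.06, beside 0.01 for all genes tested. Of the 32 fold changes 30 were above 0, beside 4756 of the 9176 genes tested and 604 of the 1440 genes of like CPM. The control and mutant values overlapped for each of the 32 core genes, whereas they did not overlap for 20.5% of all genes tested.

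The intervals limit how large a difference could be. Prosalpha1 has an adjacent copy and is described with it. For the other 31 core genes, the 95% intervals ran from -0.16 at the lowest to 0.28 at the highest on the log2 scale. Of these intervals 31 of 31 lay within 0.3 of no change, as did 1232 of the 1440 genes of like CPM and 5886 of all 9176. Standard errors of the 31 core genes were 0.03 to 0.06. The interquartile range of their log2 fold changes was 0.03 to 0.09, beside -0.09 to 0.04 for the genes of like CPM. Between replicates the core genes varied by a median of 4.34% in controls and 5.85% in mutants (SD over mean), against 3.17% and 4.26% for the genes of like CPM.

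**Figure D1:**
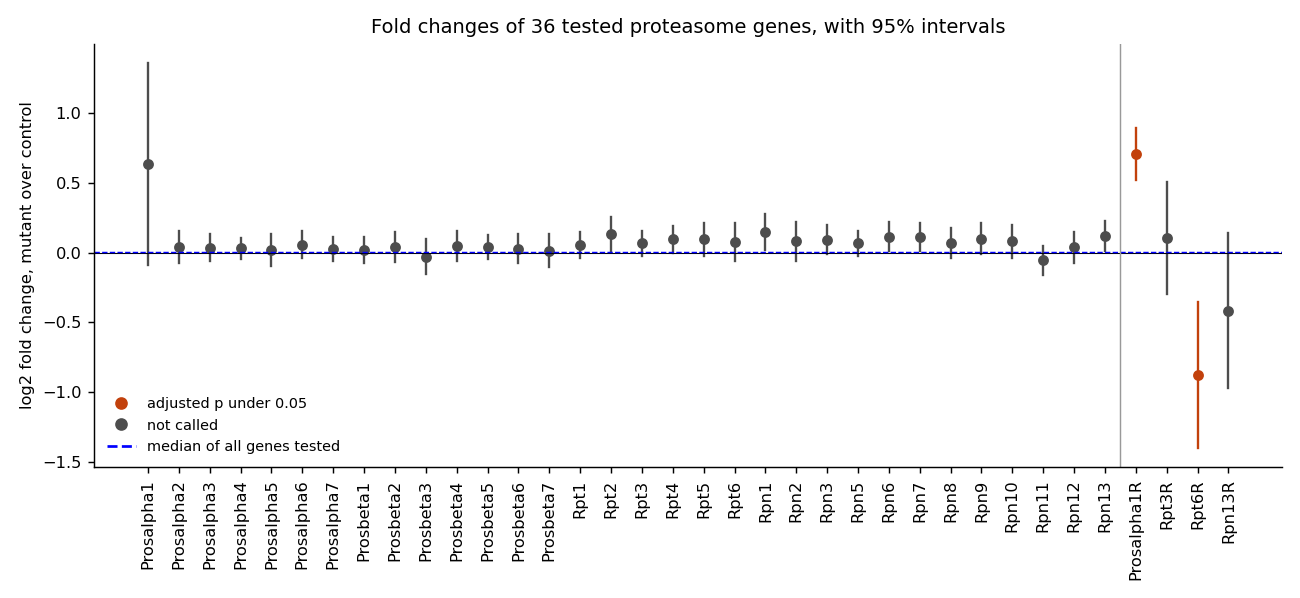
Log2 fold change, mutant over control, of the 36 tested proteasome genes with 95% intervals from the edgeR fit; core genes stand left of the vertical line and paralogues right of it. The dashed line is the median of all genes tested. Apart from Prosalpha1 the core genes lie between -0.06 and 0.15, and the genes called are Prosalpha1R (0.71) and Rpt6R (-0.87).

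Of the 7 alpha genes, which form the outer rings and the gate, none passed the test. Prosalpha4 had 171, 164, 160 and 164 CPM in control replicates 1 to 4 and 165, 168, 166 and 174 CPM in mutant replicates 1 to 4. The groups overlap, with a log2 fold change of 0.03 (SE 0.03). Prosalpha6 (0.06), Prosalpha2 (0.04), Prosalpha3 (0.03), Prosalpha7 (0.03) and Prosalpha5 (0.02) had fold changes of like size. These 6 genes had control means of 117 to 191 CPM.

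Of the 7 beta genes none passed the test either, and their median log2 fold change was 0.03. Prosbeta5, the chymotrypsin-like cutting subunit, had 208, 202, 189 and 194 CPM in controls and 198, 213, 198 and 207 CPM in mutants. Its groups overlap, with a log2 fold change of 0.04 (SE 0.04). Prosbeta2, the trypsin-like subunit, had 209, 198, 192 and 191 CPM in controls and 188, 216, 199 and 209 CPM in mutants, so that the lowest and the highest values were both mutant. Prosbeta1, the caspase-like subunit, went from 135 ± 3.93 to 137 ± 7.31 CPM (SD, n = 4). The structural beta genes Prosbeta4 (0.05), Prosbeta6 (0.03), Prosbeta7 (0.01) and Prosbeta3 (-0.03) also had intervals that include 0.

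The 6 Rpt genes, which encode the ATPase ring, had a median log2 fold change of 0.09. Rpt2, whose protein is known in yeast to control the gate of the core particle, had the largest of these fold changes at 0.14 (SE 0.06, edgeR adjusted p = 0.124). It had 217, 203, 200 and 199 CPM in controls and 200, 239, 223 and 237 CPM in mutants. Mutant replicates 2 to 4 lay above every control, and mutant replicate 1 lay among the controls. Rpt4 (0.10), Rpt5 (0.10), Rpt6 (0.08), Rpt3 (0.07) and Rpt1 (0.05) did not pass the test.

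The 12 Rpn genes also had a median log2 fold change of 0.09, with 11 of 12 above 0, as were 4756 of the 9176 genes tested. Rpn1, a scaffold that docks ubiquitin shuttles, had 380, 363, 365 and 372 CPM in controls and 356, 431, 407 and 444 CPM in mutants. Here too mutant replicates 2 to 4 exceeded every control while mutant replicate 1 was below them all (log2 fold change 0.15, SE 0.06, edgeR adjusted p = 0.126). The ubiquitin receptor genes Rpn13 and Rpn10 had 0.12 and 0.08, and the large scaffold gene Rpn2 had 0.08. The lid genes Rpn6 (0.11), Rpn7 (0.11), Rpn9 (0.10), Rpn3 (0.09), Rpn8 (0.07), Rpn5 (0.07) and Rpn12 (0.04) did not pass. Rpn11, the enzyme that strips ubiquitin from the substrate, was the one Rpn gene with a value under 0: it had 209, 190, 192 and 188 CPM in controls and 175, 194, 183 and 197 CPM in mutants (-0.06, SE 0.05).

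**Figure D2:**
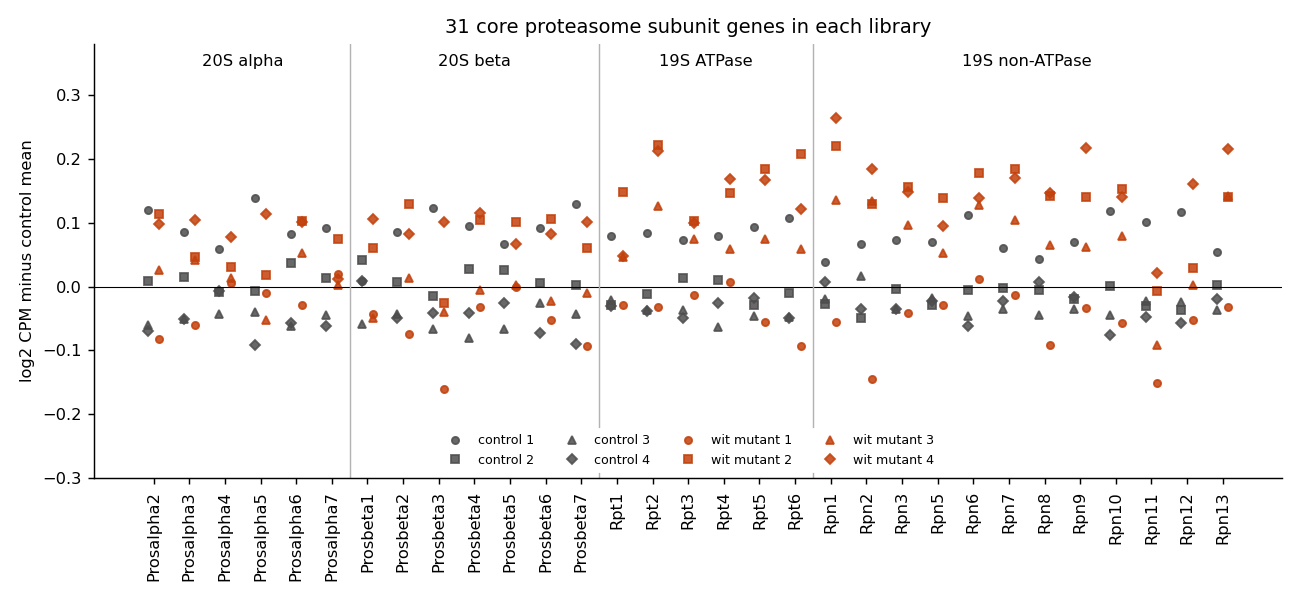
Log2 CPM of each of 31 core genes in each of the 8 libraries, minus the mean of the 4 controls; marker shapes give the replicate number and grey lines part the 20S alpha, 20S beta, 19S ATPase (Rpt) and 19S non-ATPase (Rpn) genes. Mutant replicates 2 to 4 all lie above every control for 9 of the 18 19S genes and 0 of the 13 20S genes. This count leaves out mutant replicate 1, and its share over all genes was not computed, so it cannot be set against other genes. With all 4 mutant libraries, the genotypes overlap for each of the 31 genes. They did not overlap for 20.5% of all genes tested. In control replicate 1 all 31 genes lie above the control mean, beside 14, 1 and 3 in control replicates 2 to 4. In mutant replicate 1 this holds for 4 genes, beside 29, 24 and 31 in mutant replicates 2 to 4.

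Single libraries moved the core genes together. In control replicate 1 all 31 core genes other than Prosalpha1 were above their control mean, and in control replicates 2, 3 and 4 this held for 14, 1 and 3 of them. In mutant replicates 1 to 4 it held for 4, 29, 24 and 31 genes. The median deviation of the 32 core genes from the control mean was 0.08, 0.00, -0.04 and -0.04 in control replicates 1 to 4 and -0.04, 0.13, 0.05 and 0.11 in mutant replicates 1 to 4, on the log2 scale. The deviations of controls and mutants overlap. The core genes together took 0.559% to 0.612% of all counts in controls and 0.576% to 0.673% in mutants.

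Without mutant replicate 1, edgeR called 11 of the 32 core genes higher and 0 lower in mutants, where 11.4% of all genes tested were called higher. All 11 encode the regulatory particle: the ATPase genes Rpt2, Rpt4 and Rpt5 and the Rpn genes Rpn1, Rpn2, Rpn3, Rpn6, Rpn7, Rpn8, Rpn9 and Rpn13. In that fit the log2 fold changes of these genes ran from 0.12 (Rpn8) to 0.21 (Rpn1), and the median over the core genes was 0.09. With limma-voom, which gave each library a quality weight, 6 core genes were called higher (Rpn1, Rpn3, Rpn6, Rpn7, Rpn13 and Rpt2), where 11% of all genes tested were. Without control replicate 1, Rpn6 alone was called, where 4.89% of all genes were called higher. Whether the low total of mutant replicate 1 bears on this was not tested.

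The 2 particles were also set side by side within each library. The mean log2 deviation of the 18 regulatory particle genes minus that of 13 core particle genes, with Prosalpha1 left out, was -0.01, -0.03, 0.02 and 0.02 in control replicates 1 to 4. It was 0.00, 0.07, 0.08 and 0.06 in mutant replicates 1 to 4. Mutant replicates 2 to 4 lay above all controls and mutant replicate 1 lay among them. No test was made of this difference, since its members were chosen with earlier results known. On chromosome 3, in which the genotypes differ, 14 core genes had a median log2 fold change of 0.07, and 17 elsewhere had 0.05.

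Levels can be compared between genes only per length. Per kb of merged exon in Ensembl 115, control means were 124 (Prosalpha5) to 179 (Prosalpha6) CPM per kb over 6 alpha genes and 152 (Prosbeta3) to 191 (Prosbeta2) over the 7 beta genes. They were 113 (Rpt5) to 165 (Rpt1) over the Rpt genes and 84.9 (Rpn9) to 161 (Rpn11) over the Rpn genes. Medians were 167, 164, 125 and 116 CPM per kb, so core particle genes tended to stand above regulatory particle genes on this scale. Exon length as annotated may differ from the transcript used in this tissue.

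**Figure D3:**
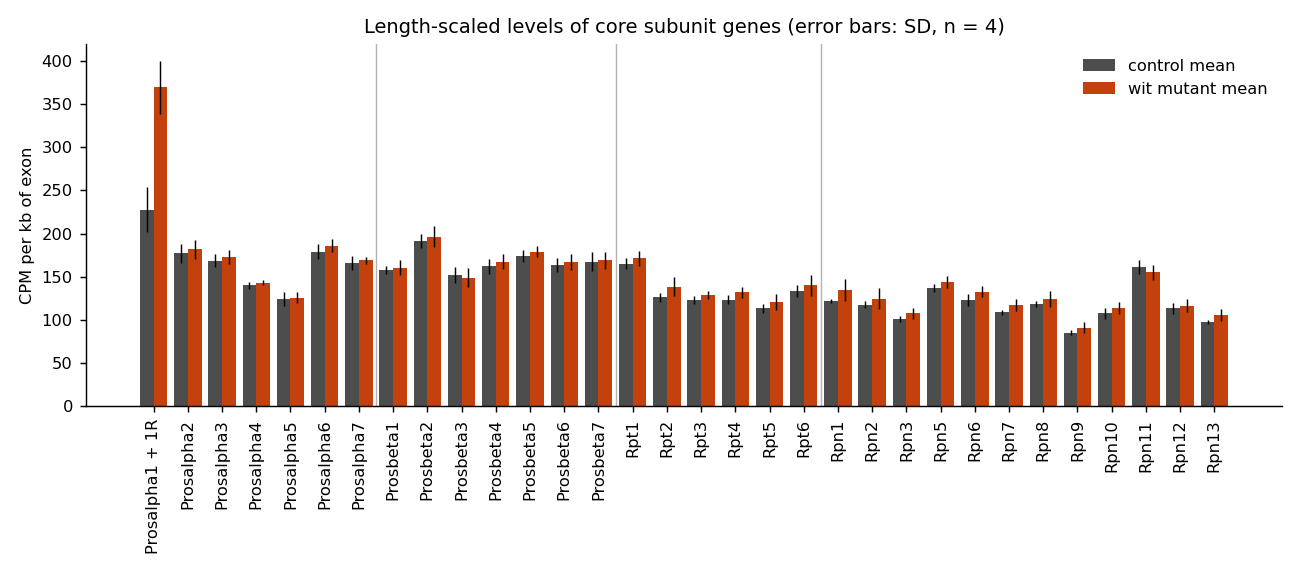
Mean CPM per kb of merged exon for the core genes in controls (grey) and mutants (orange), with SD over 4 libraries; the leftmost bars sum Prosalpha1 and Prosalpha1R over their mean length, and grey lines part alpha, beta, Rpt and Rpn genes. The summed Prosalpha1 copies go from 228 to 369 CPM per kb, above the other genes, which differ little between genotypes.

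The exception among the alpha genes is the Prosalpha1 position, which is encoded by adjacent copies. Prosalpha1 (FBgn0263121) lies on chromosome 2R at 7827303 to 7828678 and Prosalpha1R (FBgn0050382) at 7830413 to 7831771, both on the minus strand of BDGP6. In the annotation, exons of 100, 177 and 580 bp recur in both genes at an offset of 3110 bp, and each has a coding length of 732 bp, which is 244 amino acids. The name marks Prosalpha1R as a paralogue, but in these nerve cords it carried most of the counts. Prosalpha1 held 8.91% to 18.8% of the pair's counts in controls and 10.4% to 14.3% in mutants. Their sequences were not compared here. Estimated counts share out any reads that match both copies, so the split between the copies is taken as uncertain and the sum is given too.

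Prosalpha1R rose 1.63-fold in mutants. It had 221, 187, 180 and 178 CPM in controls and 289, 341, 289 and 331 CPM in mutants. Every mutant lay above every control, as it did for 8.82% of all genes tested, with a log2 fold change of 0.71 (SE 0.08, edgeR adjusted p = 0.00041). Prosalpha1 had 31.3, 19.02, 41.5 and 17.4 CPM in controls and 48.2, 39.8, 34.3 and 47.2 CPM in mutants. Its groups overlap through control replicate 3, and it did not pass the test (log2 fold change 0.63, SE 0.30, edgeR adjusted p = 0.219).

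Summed over both copies, an alternative added after the data were seen, the controls had 252, 206, 221 and 195 CPM and the mutants 337, 381, 323 and 378 CPM. The sum rose from 219 ± 24.9 to 355 ± 29.2 CPM (SD, n = 4), with a log2 fold change of 0.70 (95% interval 0.51 to 0.89, edgeR adjusted p = 0.000611). Leaving out any 1 of the 8 libraries gave log2 fold changes of 0.65 to 0.77 and adjusted p of 0.000156 to 0.00306. Per kb the sum was 228 CPM in controls and 369 CPM in mutants, so among the core positions it was highest in both genotypes. The interval of the sum lies above those of all other core genes, which end at 0.28.

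The genes around the copies were looked up after these values were seen. Within 12000 bp on either side of the pair lie 10 genes, the copies included. The photolyase gene phr, which ends 17 bp inside Prosalpha1 on the other strand, had 16.5, 14.1, 14.6 and 13.2 CPM in controls and 36.8, 32.5, 31.2 and 34.2 CPM in mutants. It rose with a log2 fold change of 1.21 (SE 0.07, edgeR adjusted p = 7.81e-07). CG18853, which lies between the copies, ends at the same 3110 bp offset from the end of phr and overlaps Prosalpha1R by 17 bp, had 9.73, 5.299, 8.95 and 3.85 CPM in controls and 36.7, 35.9, 28.4 and 37.2 CPM in mutants. It rose with a log2 fold change of 2.32 (SE 0.27, edgeR adjusted p = 0.00192). These calls held in each of the 16 alternatives. In the annotation, an exon of 386 bp recurs in phr and CG18853 at the 3110 bp offset. Any reads that match both would be shared out, so the split between phr and CG18853 is uncertain. Their sum was not fitted, and their rises may not be separate. Whether the stocks carry the same number of copies of this stretch was not tested, so these values are RNA levels and not levels per gene copy. The libraries were stranded per the labels, but the strand settings of the counting are not given in the sources used here, so reads in the overlaps could be shared.

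The genes flanking this stretch differed less. On one side CG30383 had 1.42 and 1.05 CPM in controls and mutants (log2 fold change -0.44, SE 0.26) and did not pass. The cathepsin gene cathD, next to it, rose from 549 ± 23.4 to 630 ± 45.6 CPM (0.20, edgeR adjusted p = 0.0307), with overlapping groups. Beyond cathD, puml (0.06) did not pass, nor did CG12822 (0.12), Atg10 (-0.32) and Dgk (-0.06) on the other side.

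**Figure D4:**
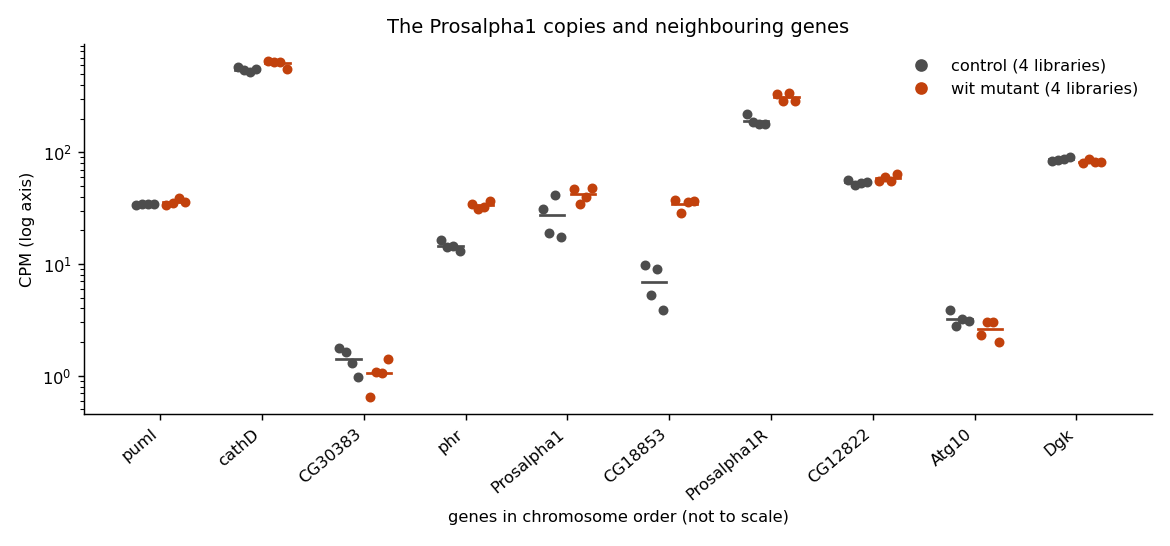
CPM on a log axis in each of the 8 libraries for the Prosalpha1 copies and the genes around them, in chromosome order but not to scale; short lines are the means of 4 libraries. The mutant values of phr, CG18853 and Prosalpha1R stand above all controls, and those of CG30383 on one side and CG12822 on the other overlap.

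The other 15 paralogues were low or near 0. Names with T mark copies known from the testis. All of these nerve cords came from females, so whether sex or tissue bears on the low levels was not tested. Only 4 of the 16 paralogues passed the filter on low counts and were tested: Prosalpha1R, Rpt3R, Rpt6R and Rpn13R. Of these, 1 rose (Prosalpha1R) and 1 fell (Rpt6R), where 6.12% of all genes tested rose and 8.66% fell.

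Rpt6R (FBgn0039788, chromosome 3R, 30582198 to 30583697), a copy of the ATPase gene Rpt6, fell 1.83-fold. It had 4.90, 3.31, 3.32 and 3.35 CPM in controls and 1.04, 2.48, 2.41 and 2.07 CPM in mutants, from counts of 88 to 138 and 22 to 78. Every mutant lay below every control, as for 11.7% of all genes tested (log2 fold change -0.87, SE 0.24, edgeR adjusted p = 0.0317), with control replicate 1 highest and mutant replicate 1 lowest. The call did not survive the removal of any single control or of mutant replicate 4 (edgeR adjusted p 0.0581 to 0.0791). The sums of neuron and glia markers were also lower in mutants, and their part in this fall was not tested. Rpt6 itself had 187 ± 9.76 CPM among controls and 197 ± 17.1 among mutants (SD, n = 4).

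Rpt3R had 2.91, 2.07, 2.13 and 1.85 CPM in controls and 2.98, 1.97, 2.25 and 2.45 CPM in mutants. Its groups overlap across almost their whole range (log2 fold change 0.10, SE 0.18). Rpn13R had 0.746, 0.902, 0.975 and 1.47 CPM in controls and 0.995, 0.670, 0.771 and 0.680 CPM in mutants, also overlapping (-0.42, SE 0.25). Neither passed the test, and at totals of 513 and 202 counts over 8 libraries a small difference would not be detectable.

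Among the untested copies, Rpn12R had 2 to 15 counts per library and 61 in all. The Prosbeta2R2 copy had 12 counts over the 8 libraries and Prosalpha4T2 had 6. Rpt4R, Prosbeta4R1 and Prosbeta5R2 had 2 each, and Prosalpha3T, Prosbeta2R1 and Prosbeta4R2 had 1 each. Prosalpha4T1, Prosalpha6T and Prosbeta5R1 had 0 counts in every library. A count of 0 allows up to 3 counts, which is 0.0916 to 0.143 CPM depending on the library. Testis germline markers were also low: sums over 12 genes were 9.12 to 12.1 CPM in controls and 9.18 to 11.04 CPM in mutants, 4 of the 12 had 0 counts in every library, and none of the 3 that could be tested passed. The nearest was betaTub85D, a testis tubulin gene, with 3.81 and 4.77 CPM (edgeR adjusted p = 0.0781) and no overlap between the genotypes.

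**Figure D5:**
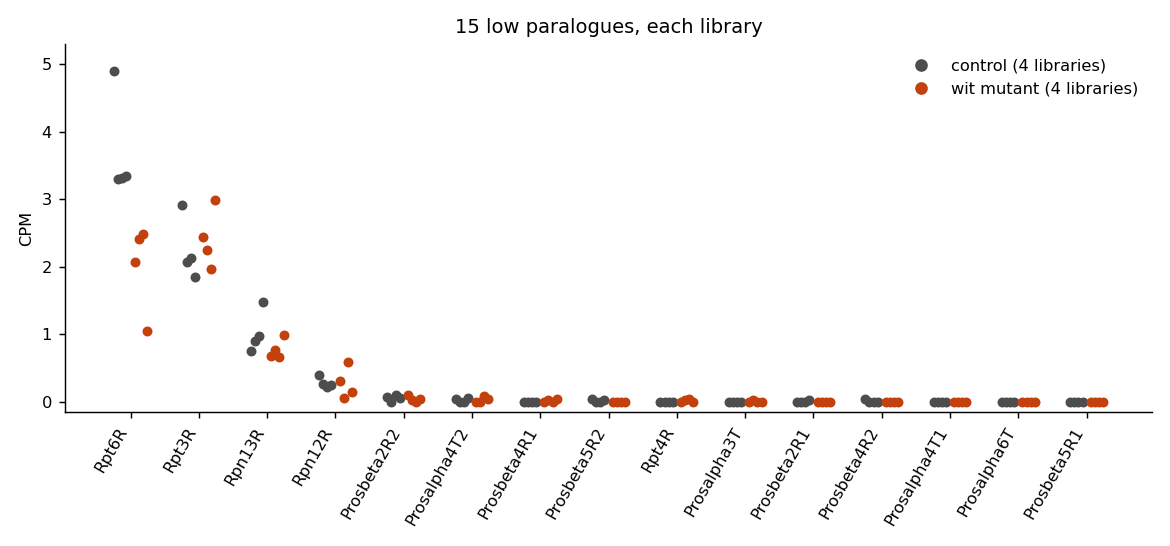
CPM in each of the 8 libraries for the 15 paralogues other than Prosalpha1R, ordered by total count. Rpt6R is the gene whose 4 mutant values all lie below the 4 controls, and 11 genes to the right of Rpn12R lie at or near 0.

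Genes that build or regulate the proteasome gave no calls in the main fit either. Of 11 such genes 0 rose and 0 fell, where 6.12% of all genes tested rose and 8.66% fell. The count that rose was 1 with limma-voom, 2 without control replicate 1, and 1 without mutant replicate 1 or mutant replicate 4. The smallest adjusted p belonged to Sem1, a small subunit of the lid that the naming rule leaves out, with 74.2 ± 4.93 CPM among controls and 84.0 ± 6.80 among mutants (log2 fold change 0.18, edgeR adjusted p = 0.0795). The list's median was 0.03. It holds cnc, whose product is known to activate proteasome genes, at 366 and 353 CPM, and the assembly factor gene Pomp at 134 and 141 CPM, neither of which passed.

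Of 12 measured genes for ubiquitin, its activation and delivery, 2 rose and 0 fell, with a median log2 fold change of 0.04. Over all genes tested, 6.12% rose and 8.66% fell. Npl4 (chromosome 3R, 25611013 to 25624662), which helps to extract ubiquitin-tagged proteins from complexes and membranes, had 122, 120, 115 and 118 CPM in controls and 148, 144, 153 and 158 CPM in mutants. Every mutant lay above every control (log2 fold change 0.35, SE 0.04, edgeR adjusted p = 8.41e-05). The polyubiquitin gene Ubi-p5E rose from 1160 ± 62.9 to 1352 ± 125 CPM (0.22, edgeR adjusted p = 0.0417), with overlapping groups. Its repeats resemble those of Ubi-p63E, at 913 and 912 CPM, so the value is uncertain.

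Of 10 ubiquitin conjugating enzyme genes 0 rose and 0 fell, with a median of 0.04, and Ubc10 came nearest (0.10, edgeR adjusted p = 0.0936). Of 18 measured ubiquitin ligase genes 3 rose and 1 fell, with a median of 0.05, where 6.12% of all genes tested rose and 8.66% fell. The count that rose was 0 when either of control replicates 2 and 4 or of mutant replicates 2 and 3 was left out, 1 when control replicate 3 or mutant replicate 4 was, and 5 when mutant replicate 1 was. The fall was in poe, a very large ligase gene of the UBR family (chromosome 2L, 8054322 to 8071624), which had 1320, 1421, 1445 and 1515 CPM in controls and 1014, 1080, 1094 and 1177 CPM in mutants (log2 fold change -0.39, SE 0.06, edgeR adjusted p = 0.000729). Every mutant lay below every control, and the part of the lower neuron and glia markers in this was not tested. SkpA, an adaptor of cullin ligases (0.11), Ube3a (0.19) and the apoptosis inhibitor Diap1 (0.15) rose with edgeR adjusted p of 0.0401, 0.0318 and 0.0377. The calls of these 3 and of Ubi-p5E were lost in 7 or 8 of the 16 alternatives each.

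The COP9 signalosome, which removes the modifier Nedd8 from cullins and is built like the proteasome lid, had 8 tested genes of 9. Of these 1 rose, where 6.12% of all genes tested did, and the median log2 fold change was 0.08. CSN7 went from 75.7 ± 3.03 to 85.9 ± 2.22 CPM (SD, n = 4; log2 fold change 0.18, SE 0.04, edgeR adjusted p = 0.00786), with no overlap between the groups. CSN1a had 0 counts in every library.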

How the data were processed

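The authors deposited 1 table of gene-level estimated counts for each library. Per the submitters' processing notes, kallisto 0.43.0, DESeq2 and BDGP6 were used, with no role stated for DESeq2. The steps from transcripts to genes are not given in the sources used here. Fractional values made up 31.36% of the deposited estimated counts, and rounding to whole numbers came first. Symbols came from a table of gene identifiers (13948 of 14175 matched), and coordinates and exon lengths from Ensembl 115 on the same assembly. Of 105 entries of the gene lists, 100 matched an identifier.

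All genes were fitted with edgeR 4.0.16 (filterByExpr with minimum count 10, TMM scaling, robust quasi-likelihood F test, no covariate, R 4.3.3), two-sided, with Benjamini-Hochberg adjustment over all genes tested and calls under 0.05. CPM values use TMM-scaled totals, each SD is over the 4 libraries of a genotype, and the standard error comes from the F statistic. Deviations are of log2(CPM + 0.5). The script was tested on simulated data. Alternatives used DESeq2 1.42.0, limma 3.58.1 and sva 3.50.0, and figures used matplotlib 3.10.9. Every member was named, with the genes of other lists that passed or, where none did, came nearest, though the nearest neuroblast, muscle and blood or fat body markers are given as sums only. Members and lists were chosen with earlier results of these data known. Replicates are pools per the labels' protocols, and pairs of libraries of a genotype differed by more than sampling noise (chi-square per degree of freedom 3.69 to 34.3). Floors of 3 counts cover counting error only.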

Additional observations from a re-analysis of the deposited data

Results flagged for a closer look

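In 5 of 72 groups of 4 libraries, 1 library stood far from the other 3, where chance gives about 1 in 20 such groups. In all 5 it was control replicate 1, at the high end. The flags of core genes are not independent, since all 31 core genes other than Prosalpha1 were above their control mean in this library. It had 264 CPM for Rpt1 where the other controls had 245 to 246, and 273 CPM for Rpn5 where they had 255 to 257. For Rpn9 it had 150 CPM (149.67) beside 139 to 141, and for Rpn11 it had 209 CPM beside 188 to 192. For the low copy Rpt6R it had 4.90 CPM beside 3.31 to 3.35.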

How the results depend on the processing

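Over 83 results and 16 alternatives, the median log2 fold change of the core genes stayed between 0.04 and 0.09, and no alternative called a core gene lower. The number of core genes called higher was 0 in edgeR's main settings and in DESeq2's Wald test, 6 with limma-voom, 1 with the Prosalpha1 copies summed (that sum, so that 0 paralogues were higher), and 0 to 11 when 1 library was left out, where 11 came without mutant replicate 1. The number of paralogues called lower, 1 (Rpt6R), was 0 to 1 when a library was left out. Deviations of same-numbered libraries had correlations of -0.05, 0.04, -0.09 and -0.31, and the main fit did not pair libraries by number. Such correlations cannot show whether same-numbered libraries were prepared together. With the replicate block 301 genes were higher, 0 paralogues were lower and 0 ubiquitin ligase genes were higher. In that fit 2 neuron and 1 glia markers were lower, and Rpt6R had an edgeR adjusted p of 0.132. Over all genes 562 were higher and 795 lower; the higher count was 1009 with limma-voom, 327 with 1 surrogate variable and 304 to 1060 with a library left out, and the lower count was then 524 to 1124. The causes were not tested. With 1 library left out, 6 uncalled genes crossed 0 on the log2 scale: Prosalpha5 (-0.0148 to 0.064), Prosbeta7 (-0.0155 to 0.0597), Prosbeta3 (-0.0718 to 0.0132), Rpt3R (-0.0057 to 0.2553), Rpn12 (-0.0038 to 0.0774) and Prosbeta1 (-0.0065 to 0.0428). The call of 23 of the 36 tested members was the same in every alternative that could be run. Low counts limit what can be seen of the paralogues other than Prosalpha1R.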
